A study of Mus musculus with 18 samples.

Results

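CFU-E, the colony-forming unit erythroid stage of mouse bone marrow, was compared between Scf KO/FL;Lepr-Cre mice and Scf KO/FL mice. The comparison takes 6 of the 18 libraries of the series, 3 from each genotype, and all 10192 genes of the 21967 in the table that passed a filter on low counts. KO/FL mice carry a null Scf copy over a floxed copy. KO/FL;Lepr-Cre mice carry the same pair of alleles plus Cre at the leptin receptor locus, which is active in perivascular stromal cells, so that both groups share the null copy and differ in the stromal Cre. They are called Lepr-Cre mice from here on. The 3 CFU-E libraries of FL/FL mice, with floxed copies and neither the null copy nor Cre, served as a reference. They also entered the filter, the scaling and the estimate of spread. PreCFU-E, the stage before, was taken to come from the same animals, matched by genotype and replicate letter. Y-linked counts were 981 to 2718 in the libraries of letters A and C and 0 to 3 in those of letter B. Mice A and C were thus taken as male and mouse B as female in each genotype, so the replicate letter also follows sex. Each library held 5000 to 10000 sorted cells, taken as those of 1 mouse. The age of the mice, their litters and the extent of deletion in the stroma were not among the labels. Cells outside the leptin receptor lineage keep the floxed copy, and Cre is present in Lepr-Cre mice only, so loss of stromal Scf and presence of Cre cannot be told apart.

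SCF, the product of Kitl, is the ligand of KIT, a receptor tyrosine kinase on blood progenitors. KIT signals through RAS and ERK, which switch on their own inhibitors of the Sprouty, SPRED and dual-specificity phosphatase families, and through PI3 kinase and AKT. Erythropoietin acts on the same cells through its receptor, JAK2 and STAT5, and takes over from SCF as the survival signal of late CFU-E.

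The 6 libraries held 6804445 to 8911102 counts. Kitl (ENSMUSG00000019966.18, plus strand of chromosome 10, 100015630 to 100100416, GRCm38) had 1 count in the library of KO/FL A and 0 in the other 5, so its level in CFU-E is no check on deletion in stromal cells. Genes of erythroid progenitors were expressed. Klf1 averaged 326 CPM (counts scaled to a common library total) in Lepr-Cre and 299 in KO/FL mice. Gata1 averaged 251 and 223, and Eng, which codes for CD105, 170.0 and 173. These levels were not set beside those of PreCFU-E, so they do not tell the stages apart. Of the genes whose proteins were gated out, Cd3e, Cd8a, Ly6a and Ly6g had 0 counts in all 6 libraries, and Slamf1, which codes for CD150, had 8 counts in Lepr-Cre and 17 in KO/FL libraries. Of the 13 sort-marker genes in the table, Kit among them, 5 had 0 counts in all 6 libraries and 4 passed the filter. Of these 4, 0 had a log2 fold change above 0, and their median was -0.32. In 2 of the 4, Kit among them, all Lepr-Cre libraries were lower, as in 8.58% of all tested genes. The library of Lepr-Cre B stood apart, with the fewest genes detected (10782) and a score of 51.7 on the first principal component of the CFU-E libraries, against 17.7 for Lepr-Cre A and 18.5 for C. Markers of other cells were low. Neutrophil and monocyte markers summed to 1.0 to 4.51 CPM over the 6 libraries, with 7 of 19 at 0, and T and NK markers to 0.223 to 2.85, with 7 of 13 at 0. B cell markers summed to 5.82 to 31.6 CPM in Lepr-Cre and 3.71 to 12.7 in KO/FL libraries, with 1 of 12 at 0. Stromal markers summed to 4.95 to 11.6 in Lepr-Cre and 2.67 to 4.68 in KO/FL libraries, with 5 of 16 at 0, and these groups did not overlap. The island macrophage sums were 24.5 to 30.9 and 25 to 33.4 CPM, with 1 of 14 at 0. The part of these cells in the results was not tested.

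In CFU-E of Lepr-Cre mice, 3 feedback inhibitors of ERK fell, Spry4, Spred1 and Spred2, and so did Kit itself. The calls of Spred2 and Kit ended in most fits that left out 1 library. Of 17 tested targets of KIT and ERK, 4 were called lower, the 3 inhibitors and Il1rl1, and 8 had a log2 fold change above 0. Of 14 tested genes of the erythropoietin and STAT5 list 4 rose, Cish, Osm, Pim1 and Fam132b, and 7 of the 14 had a log2 fold change above 0. Mthfd2, Shmt2 and Slc7a1 of serine, folate and amino acid metabolism rose as well, as did Ccnd2, a D-type cyclin, and Fabp5, a fatty acid binding protein. The transcription factor genes Myb, Bach2 and Hhex fell. edgeR's quasi-likelihood test called 30 genes higher, 0.294% of those tested, and 73 lower, 0.716%, at a Benjamini-Hochberg adjusted p under 0.05. Of these, 14 and 36 changed more than 2-fold. In all 103 the libraries of the genotypes did not overlap, which also held for 892 genes higher (8.75%) and 874 lower (8.58%) among all genes tested. The median log2 fold change over the tested genes was 0.01. Libraries of both genotypes with the same replicate letter deviated together, and with the letter as a block edgeR called 112 genes higher (1.1%) and 168 lower (1.65%), with 101 of the 103 among them. The count depended on single libraries: it was 19 without KO/FL B, 54 without KO/FL C and 52 without Lepr-Cre B. Still, 17 genes were called in each of the 6 fits that left out 1 library. All 103 kept their direction there, but without overlap between the genotypes this was largely fixed in advance. Of the 103, 29 overlap a gene on the other strand, among them Cish, Pim1, Shmt2, Myb, Bach2, Ccnd2, Amigo2, Pcdh7, Pdia6 and Cnn3, and since the strand setting of the counting is not given, reads of such pairs may be mixed. In bulk libraries, fewer cells of a type and less RNA per cell cannot be told apart, and the p-values measure the spread between these mice.

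**Figure D1:**
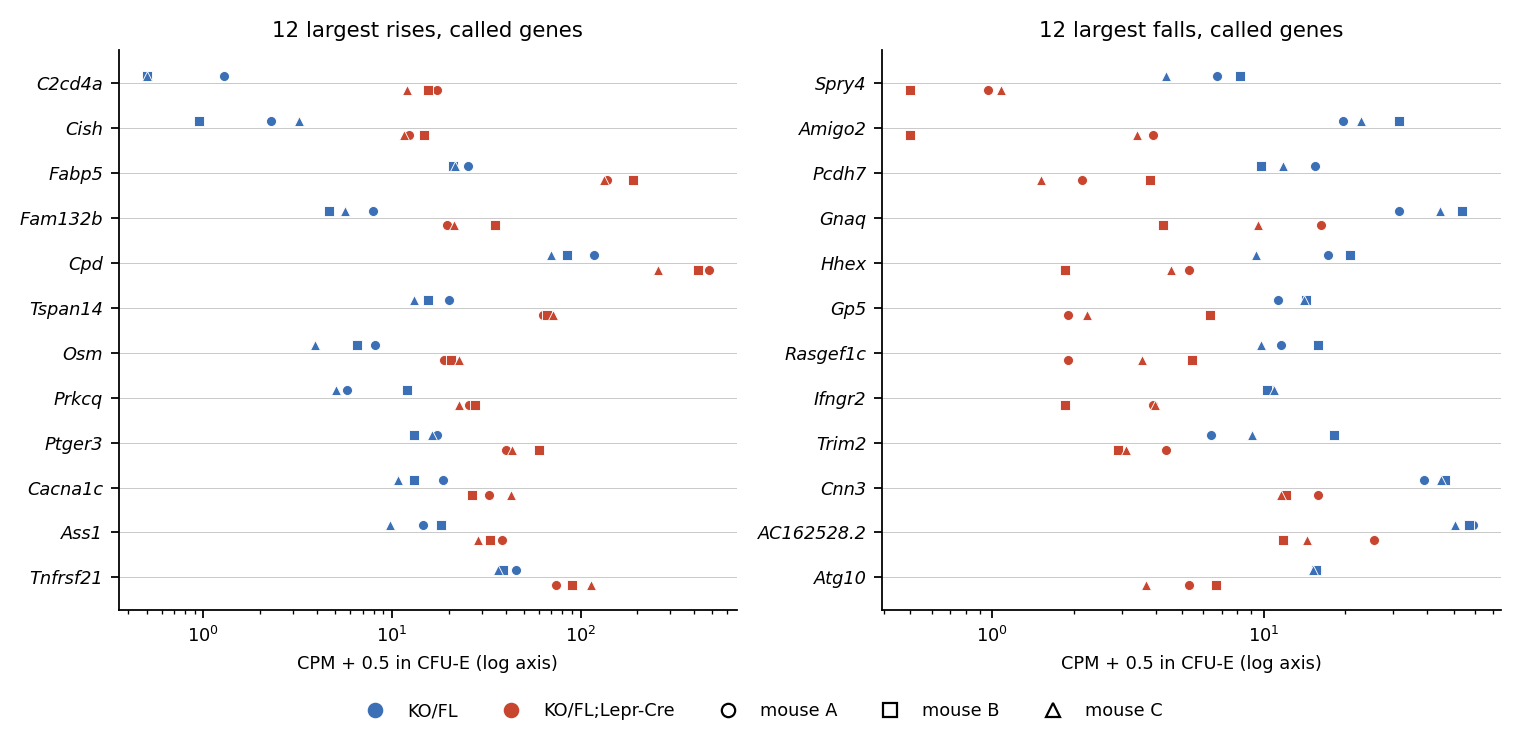
CPM plus 0.5, on a log axis, of the 12 largest rises and 12 largest falls among genes called at an adjusted p under 0.05, in each CFU-E library of KO/FL (blue) and Lepr-Cre mice (red), with a marker shape for each mouse letter. In each of the 24 genes the red and blue points do not overlap, since the genes were chosen to be so. C2cd4a lies between 0 and 0.780 CPM in KO/FL mice and between 11.5 and 16.8 in Lepr-Cre mice.

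Kit (ENSMUSG00000005672.12, plus strand of chromosome 5, 75574916 to 75656722) had 298, 229 and 210 CPM in mice A, B and C of Lepr-Cre and 355, 442 and 320 in KO/FL, within cells enriched for KIT protein. All 3 Lepr-Cre libraries lay below all 3 of KO/FL. The means were 245 ± 46.1 and 372 ± 63.2 CPM (SD, n = 3), a log2 fold change of -0.60 (SE 0.14, adjusted p = 0.0486, 0.00574 with the block). That call ended when Lepr-Cre B (adjusted p = 0.178), Lepr-Cre C (0.145), KO/FL A (0.0825) or KO/FL B (0.285) was left out, and the adjusted p was 2.74e-05 to 0.788 over all alternatives. Among 29 tested genes of KIT signalling (the receptor, its adaptors, PI3 kinase, RAS and ERK components), Kit was the 1 called, and the median log2 fold change was 0.01. Over all tested genes 0.716% were called lower and 0.294% higher. Gab2, an adaptor that links KIT to PI3 kinase, had 115, 103 and 108 CPM in Lepr-Cre and 70.8, 37.6 and 39.7 in KO/FL mice. Its groups did not overlap, with a log2 fold change of 1.13 (adjusted p = 0.0778), and it passed with the block (0.000257). Cblb, a ubiquitin ligase that acts on activated receptors, was called lower with the block alone (log2 fold change -0.65, adjusted p = 0.103 without it and 0.0458 with it).

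Of 17 tested targets of KIT and ERK, 4 were called lower and 0 higher, with a median log2 fold change of -0.22 and 8 of the 17 above 0. Among all tested genes 0.716% were called lower and 0.294% higher. This list and the others were chosen with earlier results of these data known, so counts of called members are descriptions only. Spred1, which keeps RAF from being activated by RAS, had 42.3, 39.7 and 34.9 CPM in Lepr-Cre and 102, 90.4 and 72.0 in KO/FL mice. The groups were far apart, and the log2 fold change was -1.18 (SE 0.16, adjusted p = 0.000356). Spry4, a Sprouty inhibitor of the same cascade, had 0.469, 0 and 0.582 CPM in Lepr-Cre and 6.24, 7.68 and 3.86 in KO/FL mice (log2 fold change -3.99, SE 0.65, adjusted p = 0.00271). It was close to absent in Lepr-Cre mice, with 8 counts in all against 152. Spred2, a second member of the SPRED family, had 42.1, 22.4 and 45.0 against 65.4, 75.5 and 60.3 CPM (log2 fold change -0.88, adjusted p = 0.0371), with its lowest value in Lepr-Cre B. Il1rl1, the receptor of interleukin 33, had 83.2, 62.9 and 72.0 against 133, 121 and 108 CPM (log2 fold change -0.73, adjusted p = 0.0147).

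The ETS factor gene Etv5 had 1.53, 1.65 and 0.291 CPM in Lepr-Cre and 4.91, 8.68 and 3.86 in KO/FL mice. These groups did not overlap either (log2 fold change -2.31, adjusted p = 0.0588), and with the block Etv5 was the fifth of the list to pass (0.0260). Dusp6, the phosphatase that inactivates ERK, had 7 counts in the Lepr-Cre libraries together and 64 in those of KO/FL mice (adjusted p = 0.184). Immediate-early genes showed no common direction: Egr1 had a log2 fold change of -0.22 (adjusted p = 0.952), Fos of 1.11 (0.882), Junb of 0.71 (0.254) and Myc of 0.07 (0.868). Spry1, another Sprouty gene, stood on the other side, at 3.40, 1.80 and 2.91 CPM in Lepr-Cre against 0.780, 0.111 and 0 in KO/FL mice (log2 fold change 3.07, adjusted p = 0.222). Spred1 and Spry4 were called in each fit that left out 1 library. Il1rl1 was not without KO/FL A, KO/FL B or Lepr-Cre B (adjusted p = 0.0596, 0.0823 and 0.0834), and Spred2 passed only when Lepr-Cre C was the library left out, with 0.0546 to 0.238 in the other 5 fits.

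Of 14 tested targets and components of the erythropoietin pathway, 4 were called higher and 0 lower, with a median log2 fold change of 0.09. Among all tested genes 0.294% were called higher, and this list too was chosen with earlier results known. Cish (ENSMUSG00000032578.7, plus strand of chromosome 9), a STAT5-induced inhibitor of cytokine receptors, had 11.7, 14.3 and 11.1 CPM in Lepr-Cre and 1.78, 0.445 and 2.71 in KO/FL mice. Each Lepr-Cre library was above each KO/FL library, and the log2 fold change was 2.92 (SE 0.69, adjusted p = 0.0375). Osm, which codes for oncostatin M, had 18.3, 19.98 and 22.1 against 7.58, 6.01 and 3.43 CPM, a log2 fold change of 1.81 (SE 0.36, adjusted p = 0.0147). Pim1, a serine/threonine kinase of cell survival, had 81.2, 65.0 and 62.1 against 34.6, 29.6 and 38.0 CPM, a log2 fold change of 1.03 (SE 0.20, adjusted p = 0.0124). The libraries of both genotypes were again apart. Fam132b codes for erythroferrone, the hormone by which erythroid cells suppress hepcidin. It had 19, 34.7 and 20.8 CPM in Lepr-Cre, with the highest value in mouse B, against 7.47, 4.12 and 5.14 in KO/FL mice (log2 fold change 2.15, SE 0.44, adjusted p = 0.0193).

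The receptor and its kinases were not called. Epor had a log2 fold change of -0.04 (SE 0.13), Jak2 of -0.28 (SE 0.11) and Stat5b of -0.31 (SE 0.12), with adjusted p = 0.947, 0.311 and 0.300, and Tfrc, the transferrin receptor, of 0.18 (SE 0.12, adjusted p = 0.607). Podxl, a surface sialomucin, had 358, 420 and 303 CPM in Lepr-Cre and 54.1, 8.90 and 18.6 in KO/FL mice. The gap between the groups was wide but KO/FL A stood above its own group, and edgeR gave a log2 fold change of 3.72 (SE 0.64, adjusted p = 0.0687, 0.0853 with the block). Without KO/FL A the adjusted p was 9.59e-05, and it was 0.0143 in the fit of all 18 libraries and 8.61e-06 by DESeq2. The calls of this list also rested on single libraries. Cish passed only when KO/FL C was left out, with adjusted p = 0.0920 to 0.216 in the other 5 fits. Fam132b was not called without Lepr-Cre B (0.105), KO/FL B (0.157) or KO/FL C (0.0786), Osm without Lepr-Cre C (0.0534), KO/FL B (0.0823) or KO/FL C (0.0674), and Pim1 without KO/FL B or Lepr-Cre A (0.113 and 0.0665).

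**Figure D2:**
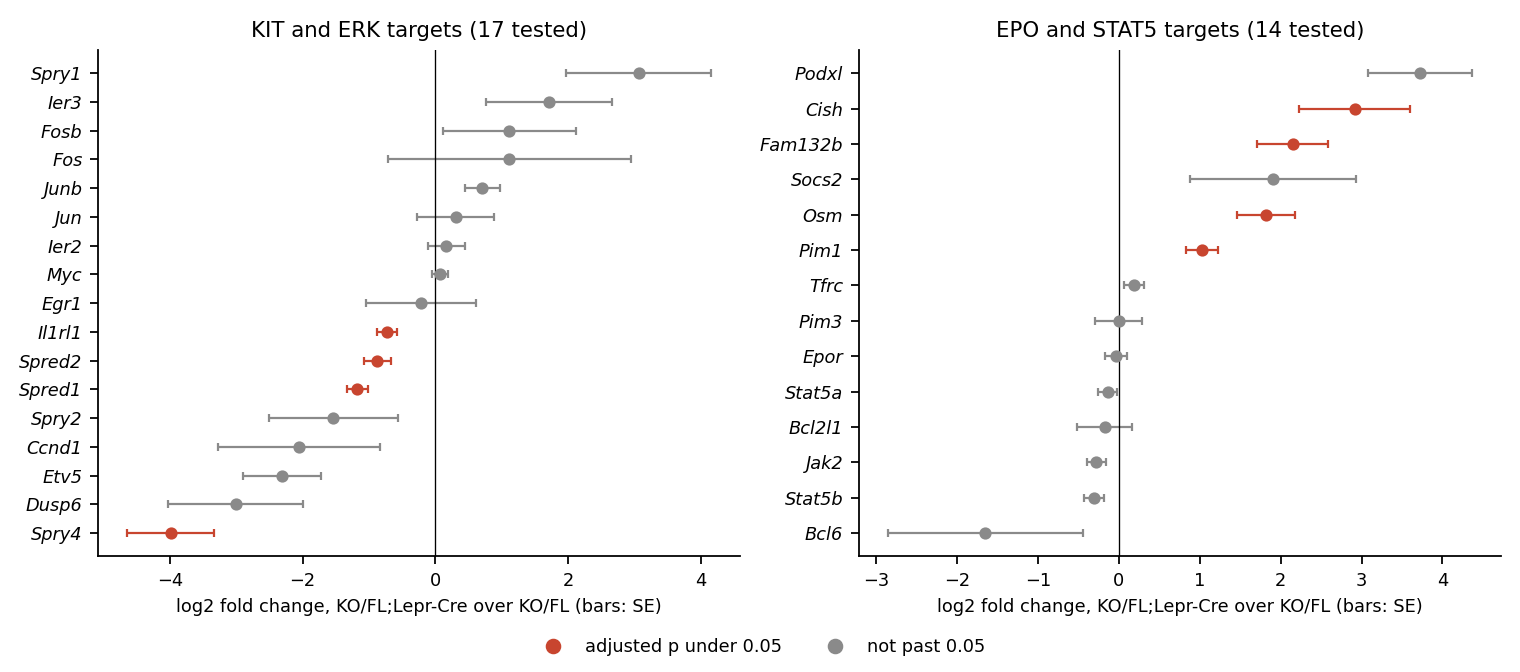
Log2 fold change, Lepr-Cre over KO/FL in CFU-E, of the 17 tested targets of KIT and ERK (left) and the 14 tested genes of the erythropoietin list (right), with SE as bars and red for adjusted p under 0.05. The 4 red points on the left lie below 0 and the 4 on the right above it, while genes with few counts have wide bars on either side.

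The largest rise among the called genes was that of C2cd4a (ENSMUSG00000047990.6, minus strand of chromosome 9), a gene of a nuclear C2 domain family known from pancreatic islets. It had 16.8, 15 and 11.5 CPM in Lepr-Cre and 0.780, 0 and 0 in KO/FL mice, 322 counts against 7. It was thus near absent in KO/FL mice and in FL/FL mice, which had 0 counts (log2 fold change 5.64, SE 0.86, adjusted p = 0.00266, though 0.0859 by DESeq2). Fabp5 (ENSMUSG00000027533.10, plus strand of chromosome 3) had 138, 189 and 133 CPM in Lepr-Cre and 24.8, 20.5 and 21 in KO/FL mice. With a log2 fold change of 2.79 (SE 0.24) it had the smallest adjusted p of all genes tested, 1.1e-05. Tspan14, a tetraspanin that directs the protease ADAM10, had 62.7, 65.6 and 71.1 against 19.6, 15 and 12.6 CPM, a log2 fold change of 2.07 (SE 0.22, adjusted p = 1.95e-05). The spread within both groups was small beside that gap.

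Cpd, carboxypeptidase D, had 481, 418 and 258 CPM in Lepr-Cre and 118, 84.3 and 69.3 in KO/FL mice (log2 fold change 2.09, SE 0.31, adjusted p = 0.0268, 2.33e-12 with the block). Its levels followed the letters in both groups, with A highest and C lowest. Ptger3, a receptor of prostaglandin E2, had 39.9, 59.6 and 42.8 against 16.8, 12.6 and 15.9 CPM (log2 fold change 1.65, adjusted p = 0.00145). Tnfrsf21, death receptor 6, had 73.6, 89.7 and 113 against 44.8, 38.4 and 35.9 CPM (log2 fold change 1.21, adjusted p = 0.00432). Signalling genes were also among the rises: Prkcq, a protein kinase C, had 25.1, 27.2 and 22.1 CPM in Lepr-Cre and 5.24, 11.5 and 4.57 in KO/FL mice (log2 fold change 1.80, adjusted p = 0.0147). Cacna1c, a calcium channel subunit, had 32.2, 26.1 and 42.2 against 18.1, 12.6 and 10.3 CPM (log2 fold change 1.29, adjusted p = 0.0227). Ass1, argininosuccinate synthase of arginine synthesis, had 38.0, 32.7 and 28.2 against 14, 17.6 and 9.28 CPM (log2 fold change 1.27, adjusted p = 0.0163). C2cd4a, Fabp5, Tspan14 and Ptger3 were called in each fit that left out 1 library. Cpd was not without Lepr-Cre B (adjusted p = 0.0865), KO/FL B (0.188) or KO/FL C (0.0725), Prkcq without KO/FL A, KO/FL C or Lepr-Cre B (0.0593, 0.0725 and 0.0563) and Tnfrsf21 without KO/FL B (0.0583). Cacna1c was not without Lepr-Cre A (0.0595), Lepr-Cre C (0.121), KO/FL B (0.164) or KO/FL C (0.107), nor Ass1 without KO/FL C or Lepr-Cre A (0.0797 and 0.0764).

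Among the falls, Cnn3 (ENSMUSG00000053931.11, plus strand of chromosome 3), an actin-binding calponin, had 15.4, 11.6 and 11.1 CPM in Lepr-Cre and 38.5, 46.0 and 44.4 in KO/FL mice. Both groups were tight, and the log2 fold change was -1.75 (SE 0.21, adjusted p = 0.000111). Pcdh7, a protocadherin, had 1.64, 3.30 and 1.02 against 14.9, 9.24 and 11.3 CPM, a log2 fold change of -2.57 (SE 0.45, adjusted p = 0.00458). Hhex, a homeobox factor of early blood progenitors, had 4.81, 1.35 and 4.07 against 16.7, 20.3 and 8.86 CPM, a log2 fold change of -2.14 (SE 0.40, adjusted p = 0.00907). Amigo2, a cell surface adhesion protein, had 3.40, 0 and 2.91 CPM in Lepr-Cre and 19.2, 30.9 and 22.3 in KO/FL mice. The libraries did not overlap, but the adjusted p was 0.0439 and, with the block, 0.0671 (log2 fold change -3.47, SE 0.64). Gnaq, the alpha subunit of the G protein Gq, had 15.7, 3.75 and 9.02 against 31.0, 53.2 and 44.1 CPM, a log2 fold change of -2.15 (SE 0.42, adjusted p = 0.0439). In mouse B the gap of Gnaq was widest, with the lowest Lepr-Cre and the highest KO/FL value. The unnamed locus AC162528.2 had 25, 11.3 and 14 against 58.3, 56.5 and 50.3 CPM, a log2 fold change of -1.70 (SE 0.25, adjusted p = 0.00159).

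Rasgef1c, an exchange factor of small GTPases, had 1.41, 4.96 and 3.06 CPM in Lepr-Cre and 11, 15.4 and 9.28 in KO/FL mice (log2 fold change -1.94, adjusted p = 0.0268). Ifngr2, a chain of the interferon gamma receptor, had 3.40, 1.35 and 3.49 against 10.1, 9.80 and 10.4 CPM (log2 fold change -1.86, adjusted p = 0.0268). Atg10, an enzyme of autophagy, had 4.81, 6.16 and 3.20 against 15.3, 15.1 and 14.7 CPM (log2 fold change -1.67, adjusted p = 0.0205). Both of these receptor and autophagy genes were almost level across the KO/FL libraries. Trim2, a ubiquitin ligase, had 3.87, 2.40 and 2.62 against 5.91, 17.7 and 8.57 CPM (log2 fold change -1.84, adjusted p = 0.0406), with a wide spread in KO/FL mice. AC162528.2, Cnn3 and Pcdh7 were called in each fit that left out 1 library. Without KO/FL B the adjusted p was 0.0823 for Hhex, 0.184 for Gnaq, Amigo2 and Rasgef1c, 0.126 for Ifngr2, 0.109 for Atg10 and 0.392 for Trim2. Gnaq was also not called without KO/FL C or Lepr-Cre C (0.128 and 0.157), Rasgef1c without Lepr-Cre A or Lepr-Cre C (0.0969 and 0.0842), and Ifngr2 without KO/FL A, KO/FL C or Lepr-Cre B (0.0657, 0.0756 and 0.0841). Amigo2 passed only without Lepr-Cre B, Trim2 only without KO/FL A and Atg10 only without Lepr-Cre B. In their other fits the adjusted p was 0.0554 to 0.184, 0.0614 to 0.392 and 0.0536 to 0.109.

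Further genes called in each fit that left out 1 library were picked for that property after their values were seen. Ptpn13, a protein tyrosine phosphatase, had 18.2, 19.1 and 15.9 CPM in Lepr-Cre and 54.2, 68.7 and 45.7 in KO/FL mice (log2 fold change -1.67, SE 0.22). Mylk3, a myosin light chain kinase, had 23.4, 21.6 and 29.8 against 50.5, 69.3 and 69.3 CPM (log2 fold change -1.34, SE 0.18). Pdcd4, an inhibitor of translation initiation, was level within Lepr-Cre mice, at 230.4, 228 and 231 CPM, and had 326, 381 and 421 in KO/FL mice (log2 fold change -0.71, SE 0.11). The others were Klhl24, Arhgef25, Dapp1, Aplp2 and Ephx2, all lower, with log2 fold changes of -1.32, -1.35, -1.0, -0.64 and -1.55. Their libraries did not overlap in any of these 8 genes.

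Of 23 tested genes of serine, folate and amino acid metabolism and the ATF4 response, 3 were called higher and 0 lower, with a median log2 fold change of 0.36. The shares over all tested genes were 0.294% and 0.716%. Mthfd2, a mitochondrial enzyme of folate metabolism, had 153, 141 and 117 CPM in Lepr-Cre and 84.0, 55.4 and 67.4 in KO/FL mice (log2 fold change 0.99, SE 0.16, adjusted p = 0.00305). Shmt2, which passes a carbon unit from serine to folate in mitochondria, had 358, 378 and 338 against 265, 232 and 255 CPM, a log2 fold change of 0.52 (SE 0.10, adjusted p = 0.0149). Slc7a1, an importer of arginine and lysine, had 264, 298 and 288 against 225, 175 and 187 CPM, a log2 fold change of 0.53 (SE 0.11, adjusted p = 0.0193). The genotypes did not overlap in any of these, nor in 7 more genes of the list, 10 higher in all and 0 lower. Among all tested genes they did not overlap in 8.75% that were higher and 8.58% that were lower. With the block, Slc7a5, a carrier of large neutral amino acids, and Psat1 of serine synthesis passed as well (log2 fold change 0.43 and 0.46, adjusted p = 0.0102 and 0.0247, against 0.0707 and 0.0930 without it). Atf4, the factor that drives many of these genes, had a log2 fold change of 0.34 (SE 0.13, adjusted p = 0.259). Without KO/FL B the adjusted p of Mthfd2 was 0.0548, of Shmt2 0.157 and of Slc7a1 0.184. Shmt2 was also not called without KO/FL C or Lepr-Cre B (0.0547 and 0.0816), and Slc7a1 without Lepr-Cre B (0.0884), Lepr-Cre C (0.0589) or KO/FL C (0.0846).

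The start regions of genes that rose were scanned because several of them are known as STAT5 or ATF4 targets. The windows are the 250 bases before each start site in the RefSeq promoter table of GRCm38.p6, which held 24 of the 30 genes called higher (33 windows) and 57 of the 73 called lower (86 windows). The STAT5 letters TTCNNNGAA stood in 21.2% of the windows of genes called higher, 11.6% of those of genes called lower, 5.75% of those of tested genes and 7.02% of all 32851 windows, both strands counted. The 21.2% are 7 windows of 6 genes. These letters stood in 3 of 21 windows of the erythropoietin and STAT5 list. They stood in 5 of 31 of the serine, folate and ATF4 list and 0 of 21 of the KIT and ERK list. The ATF4 letters TGATGNAA stood in 6.06%, 3.49%, 1.90% and 3.45%, and in 6 of the 31 windows of the serine, folate and ATF4 list. The GATA letters AGATAA stood in 0 of 33 windows of genes called higher, 12.8% of those of genes called lower, 5.8% of those of tested genes and 9.99% of all. The ETS letters ACCGGAAG stood in 6.06%, 2.33%, 3.72% and 1.72%. Windows of 1 gene can overlap and matches of different motifs can too, so these shares are descriptions. The windows of Cish, Fam132b (as Erfe), Pim1 and Mthfd2 held none of these letters, and Osm had no window. The Cish window (chr9:107296409-107296658) lies inside the gene, which starts at 107296026 in the GENCODE models. Its start site was not found near the start of a GENCODE transcript of Cish. Bases before 107296026 were thus not scanned for Cish. Shown are the windows of 3 genes called higher and of Pdcd4, called lower, with the matches in capitals. Of Slc7a1, Cacna1c and Pdcd4 the table also holds 1, 2 and 1 other windows, which had no match and are not shown. The only Shmt2 window (chr10:127522445-127522694, minus strand) has the ETS letters and then the STAT5 letters, 55 bases before the start. The Slc7a1 window shown (chr5:148392816-148393065, minus strand) and that of Pdcd4 (chr19:53891981-53892230, plus strand) have the STAT5 letters. The Cacna1c window shown (chr6:118757975-118758224, minus strand) has the STAT5 and then the ATF4 letters.
Shmt2: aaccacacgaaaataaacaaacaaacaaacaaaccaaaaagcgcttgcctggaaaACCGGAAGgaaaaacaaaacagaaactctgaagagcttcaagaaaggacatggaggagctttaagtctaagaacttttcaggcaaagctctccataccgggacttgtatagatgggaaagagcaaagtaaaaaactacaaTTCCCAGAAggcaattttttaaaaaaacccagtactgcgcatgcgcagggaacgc
Slc7a1: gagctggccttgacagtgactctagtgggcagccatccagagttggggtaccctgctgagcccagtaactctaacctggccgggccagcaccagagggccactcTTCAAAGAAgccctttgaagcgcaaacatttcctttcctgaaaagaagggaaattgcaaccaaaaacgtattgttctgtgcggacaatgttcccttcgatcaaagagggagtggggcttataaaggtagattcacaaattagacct
Cacna1c: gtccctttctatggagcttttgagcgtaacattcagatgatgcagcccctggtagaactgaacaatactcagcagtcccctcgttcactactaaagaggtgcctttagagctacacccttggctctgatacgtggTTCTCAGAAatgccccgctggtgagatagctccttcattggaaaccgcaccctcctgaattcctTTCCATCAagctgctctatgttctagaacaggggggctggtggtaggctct
Pdcd4: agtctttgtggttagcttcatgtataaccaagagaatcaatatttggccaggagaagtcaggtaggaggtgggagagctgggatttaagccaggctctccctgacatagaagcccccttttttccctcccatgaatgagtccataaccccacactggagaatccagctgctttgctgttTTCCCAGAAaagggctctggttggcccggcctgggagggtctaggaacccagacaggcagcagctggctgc

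Other lists had few calls. Myb, a factor that keeps erythroid progenitors proliferating, had 571, 360 and 376 CPM in Lepr-Cre and 672, 799.9 and 664 in KO/FL mice. All Lepr-Cre libraries were lower, with Lepr-Cre A the nearest to the other group (log2 fold change -0.71, SE 0.15, adjusted p = 0.0227). Bach2, a repressor of the BACH family, had 3.40, 4.21 and 3.35 against 7.47, 11.9 and 13.3 CPM, a log2 fold change of -1.57 (SE 0.35, adjusted p = 0.0268). These were the 2 called of 24 tested erythroid transcription factors, whose median log2 fold change was -0.09. The share called lower over all tested genes was 0.716%. Gata2 had 31.3, 8.41 and 11.5 against 29.2, 33.1 and 32.7 CPM (adjusted p = 0.334), with Lepr-Cre A inside the range of the other group. Neither Gata1 nor Tal1 was called (log2 fold change 0.17 and 0.19, adjusted p = 0.672 and 0.433). Myb was not called without Lepr-Cre B (adjusted p = 0.0964), Lepr-Cre C (0.0945) or KO/FL B (0.157), and Bach2 without Lepr-Cre A (0.0715), Lepr-Cre C (0.0688), KO/FL B (0.153) or KO/FL C (0.103).

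Over all tested genes 0.294% were called higher, the share to set beside the counts of the lists that follow. Ccnd2 was the 1 gene called of 21 G1 cyclins, their kinases and inhibitors. It had 296, 241 and 236 CPM in Lepr-Cre and 194, 140 and 108 in KO/FL mice, in the order of the letters in both groups (log2 fold change 0.81, SE 0.17, adjusted p = 0.0268, 0.000133 with the block). In the red cell membrane skeleton 1 of 21 genes was called, Dmtn, the actin-bundling protein dematin, at 56.5, 86.4 and 84.7 against 34.6, 46.7 and 43.3 CPM, a log2 fold change of 0.87 (SE 0.20, adjusted p = 0.0390). Among 20 genes of the unfolded protein response, Pdia6, a disulfide isomerase, was called. It had 253, 224 and 211 against 182, 158 and 157 CPM, a log2 fold change of 0.47 (SE 0.11, adjusted p = 0.0449). Of the 20, 17 had a log2 fold change above 0, as did 5169 of all 10192 tested genes. The libraries of Ccnd2, Dmtn and Pdia6 did not overlap between genotypes. Dmtn passed only without Lepr-Cre A, while Ccnd2 passed only without KO/FL A and so did Pdia6. In their other fits without 1 library the adjusted p was 0.104 to 0.163, 0.0618 to 0.199 and 0.0534 to 0.269.

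No haem synthesis gene of 19 was called, with a median log2 fold change of 0.18. Cpox, coproporphyrinogen oxidase, had 1033, 1104 and 992 CPM in Lepr-Cre and 819.7, 807 and 823 in KO/FL mice (log2 fold change 0.35, SE 0.10, adjusted p = 0.120, 0.0258 with the block). All 4 tested globin genes had a log2 fold change above 0, and Hba-a1, which shares reads with its near copy Hba-a2, had 22.9, 35.4 and 44.8 against 13.3, 19.8 and 17.4 CPM, a log2 fold change of 1.03 (SE 0.26, adjusted p = 0.0577, 0.0141 with the block). Nop2, of ribosome assembly, had 284, 324 and 309 against 233, 224 and 233 CPM, a log2 fold change of 0.41 (SE 0.10, adjusted p = 0.0530, 0.0123 with the block). Of 36 tested genes of MYC and ribosome biogenesis, 34 had a log2 fold change above 0 (5169 of 10192 tested genes did). In 17 of the 36 the genotypes did not overlap, all higher in Lepr-Cre mice, as in 892 (8.75%) of all tested genes. None of the 36 was called without the block. With it 3 were called higher, as were 1.1% of all tested genes. In Rrm2 of DNA synthesis and Hist1h2ac, a replication histone, the log2 fold changes were 0.35 and 0.50, and both passed with the block alone (adjusted p = 0.147 and 0.0942 without it, 0.0395 and 0.0190 with it). The lists with no call under either fit were glycolysis (22 tested), BCL2 family (12), cholesterol synthesis (26), respiratory chain (46), p53 targets (19), glucocorticoid response (14) and early progenitor genes (17). Mitosis (39) and interferon and antigen presentation (32) had 1 gene each called lower with the block, Nusap1 (log2 fold change -0.47, adjusted p = 0.0930 without it and 0.0443 with it) and Ifi27 (-0.89, 0.371 and 0.0458). The block fit called 1.65% of all tested genes lower.

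**Figure D3:**
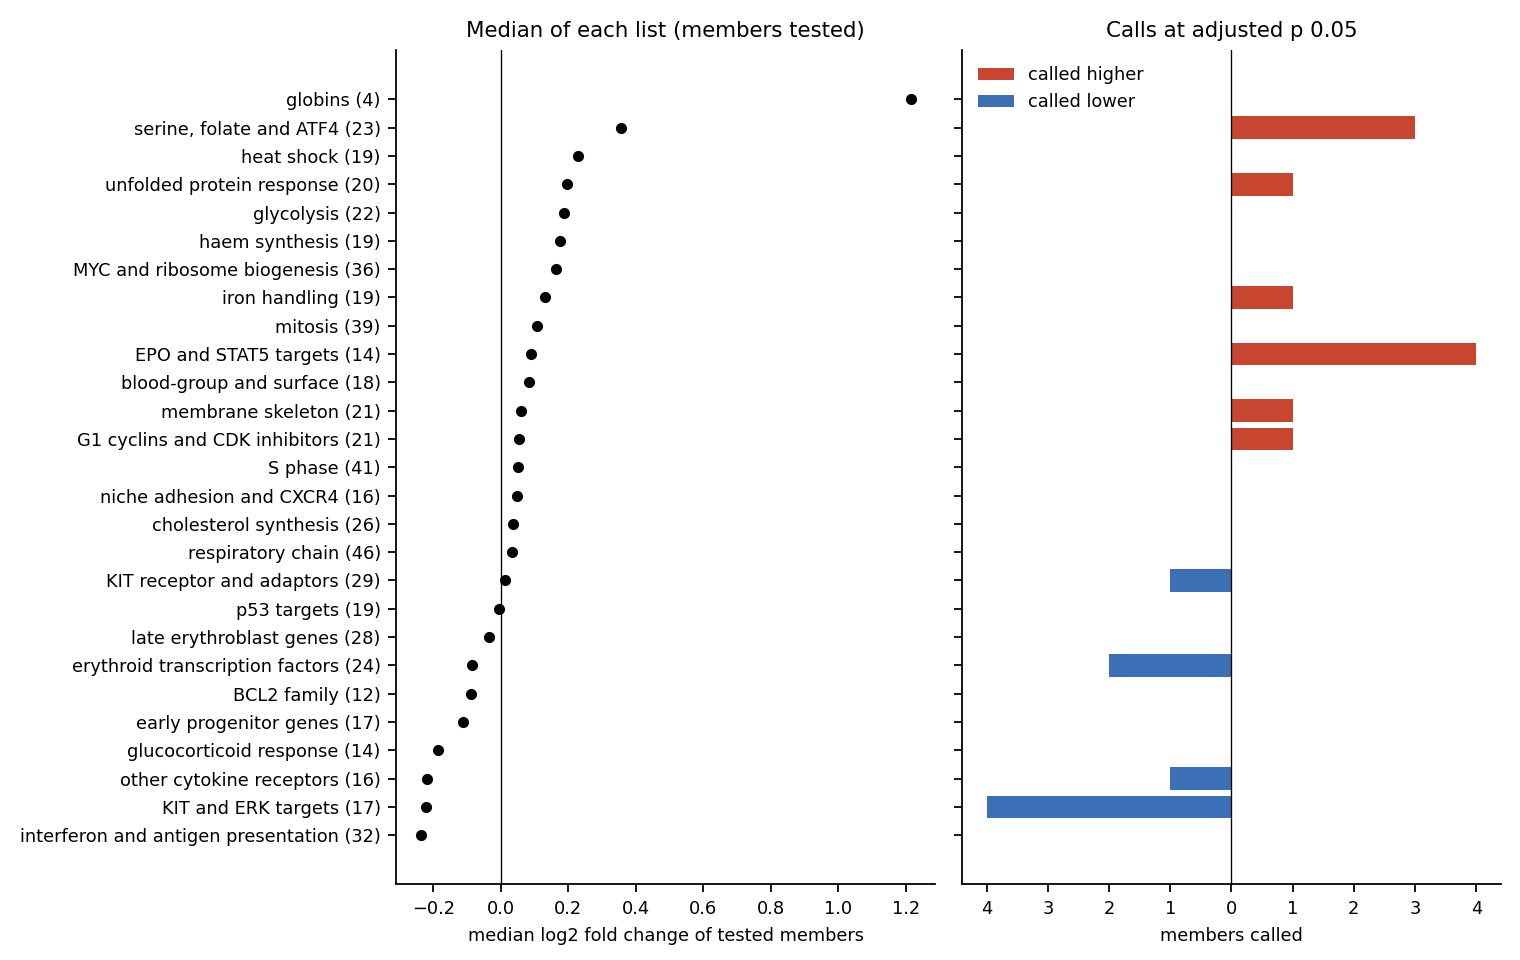
Left, the median log2 fold change, Lepr-Cre over KO/FL in CFU-E, of the tested members of each of 27 gene lists, with the number tested in parentheses. Right, how many members edgeR called higher (red) or lower (blue) at an adjusted p of 0.05: 17 lists had none, and the erythropoietin list and the KIT and ERK list had 4 each, in opposite directions.

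Genes that mark other cells were also among the calls. Gp5, a platelet glycoprotein, had 1.41, 5.86 and 1.75 CPM in Lepr-Cre and 10.8, 13.8 and 13.6 in KO/FL mice (log2 fold change -2.10, SE 0.42, adjusted p = 0.0161). The 16 megakaryocyte markers summed to 42.5 to 63.1 CPM in Lepr-Cre and 47.4 to 56.5 in KO/FL libraries, with Ppbp, Gp6, Gp1bb and Clec1b at 0 in all 6. Plvap, an endothelial membrane protein, had 9.27, 9.31 and 3.78 against 15.2, 25.9 and 18.3 CPM, a log2 fold change of -1.40 (SE 0.31, adjusted p = 0.0274). The 12 endothelial markers summed to 165 to 198 against 173 to 217 CPM, most of it Eng, and Cdh5 had 0 counts in Lepr-Cre and 1 in KO/FL libraries. Mast cell, basophil and eosinophil markers summed to 49.6 to 68.2 CPM in Lepr-Cre and 75.0 to 96.4 in KO/FL libraries, without overlap, with 8 of 18 at 0. Most of that sum was Srgn, a proteoglycan core protein of many blood cells, at 48.9, 65.6 and 55.9 against 70.8, 79.7 and 90.3 CPM (log2 fold change -0.50, adjusted p = 0.174, 0.0482 with the block). The part of platelet, endothelial and mast cell RNA in these differences was not tested. Gp5 was not called without KO/FL B, Lepr-Cre A or Lepr-Cre C (adjusted p = 0.0881, 0.0629 and 0.0616), nor Plvap without Lepr-Cre C (0.0971), KO/FL B (0.238) or KO/FL C (0.0608).

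FL/FL mice place these levels against animals without the null copy. The comparison of KO/FL with FL/FL shares the KO/FL libraries with the one above, so its values are only set beside it. edgeR called no gene in it (0%), with 210 genes at an unadjusted p under 0.05, and DESeq2 called 1. Kit had 462, 357 and 402 CPM in FL/FL mice, which overlapped the KO/FL range of 320 to 442. Spred1 had 103, 111 and 87.8 CPM, and Cnn3 48.2, 44.8 and 64.4, both above or within the KO/FL values. Cish had 0.704, 0 and 0.117 CPM in FL/FL mice, below 2 of the 3 KO/FL libraries. Pim1 had 20.4, 31.3 and 20.7 CPM, with FL/FL B inside the KO/FL range, and Mthfd2 42.9, 59.9 and 51.3. Podxl had 1.94, 4.5 and 2.46 CPM in FL/FL mice, below all KO/FL libraries. Bach2 had 17.1, 16.7 and 17.6 CPM in FL/FL mice, above the 7.47 to 13.3 of KO/FL mice. Spry4 had 11.6, 12 and 10.5 CPM, again above all KO/FL libraries, which in turn lay above those of Lepr-Cre mice.

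**Figure D4:**
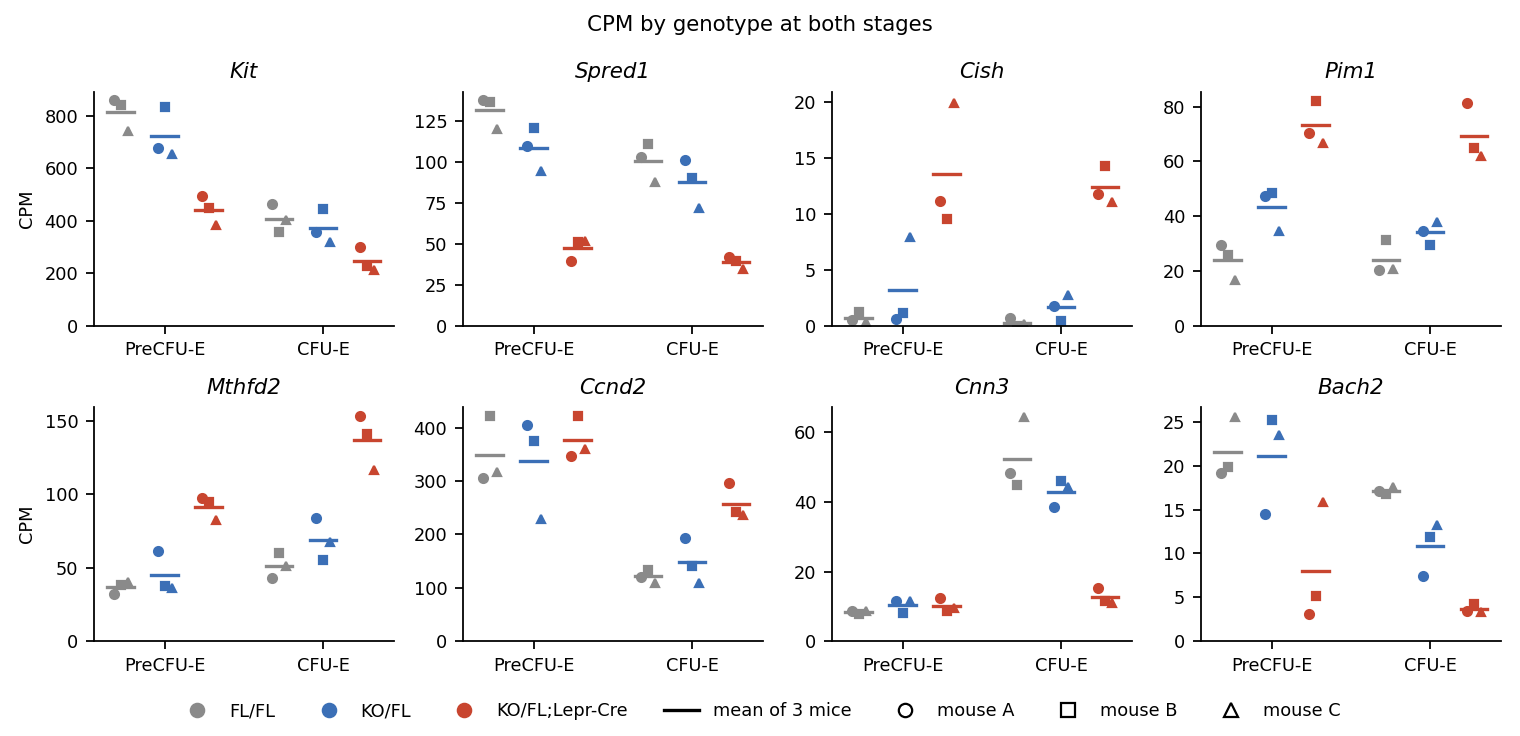
CPM of 8 genes in PreCFU-E (left in each panel) and CFU-E (right) of FL/FL (grey), KO/FL (blue) and Lepr-Cre mice (red), with a point for each of 3 mice and a line at their mean. Cnn3 is at 7.71 to 12.3 CPM in PreCFU-E of every genotype and separates the red CFU-E libraries (11.1 to 15.4) from the blue ones (38.5 to 46.0).

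The same contrast in PreCFU-E of these mice had 105 genes called higher (1.02%) and 120 lower (1.16%) among 10309 tested. Of the 30 genes called higher in CFU-E, 29 had the same direction in PreCFU-E and 21 were called there, 70.0% of the CFU-E list and 20% of the 105. Of the 73 called lower, 69 of 72 tested had the same direction and 29 were called, 39.7% of the CFU-E list and 24.2% of the 120. Fabp5 had a log2 fold change of 2.07 in PreCFU-E (adjusted p = 1.72e-06), Spred1 of -1.19 (3.09e-05) and Kit of -0.71 (0.00129). C2cd4a had 8.14, 9.57 and 10.3 CPM in PreCFU-E of Lepr-Cre mice and 0 counts in all 3 KO/FL libraries there. The 4 genes with opposite signs, named because they were so few, were Cecr2, Galns and Ctse, lower in CFU-E, and Ass1, higher. None of them was called in PreCFU-E.

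Whether a response differed between the stages was tested as an interaction over all 18 libraries. edgeR called no gene (0%) without a block, with 569 at an unadjusted p under 0.05, while DESeq2 called 23. Libraries of the same genotype and replicate letter were taken as 1 mouse at both stages. With the mouse so defined as a block, edgeR called 61 genes. Same-letter libraries deviated together with r = 0.111 to 0.197 between stages of 1 genotype and 0.119 to 0.208 between genotypes of 1 stage. Whether the block holds an effect of the mouse or of the letter was not tested. Cnn3 fell in CFU-E and had a log2 fold change of -0.02 in PreCFU-E, a difference of -1.77 with the block (adjusted p = 0.00429, 0.0650 without it). Ass1 rose in CFU-E and had -0.01 in PreCFU-E (difference 1.28, adjusted p = 0.00307, 0.129 without it). For Sptb, the beta chain of spectrin, the response was smaller in CFU-E: it had 854, 1138 and 839.6 CPM in Lepr-Cre and 667, 799 and 654 in KO/FL CFU-E, against 413, 450.2 and 385 and 149.5, 113 and 110 in PreCFU-E. The log2 fold changes were 0.42 and 1.75, and their difference was -1.36 with the block (adjusted p = 8.58e-08, 0.0605 without it). Add2, beta adducin of the same skeleton, followed that order, with 0.16 and 0.81 (difference -0.66, adjusted p = 0.00120 with the block, 0.129 without it). Apoe, apolipoprotein E, had -0.17 in CFU-E and -1.75 in PreCFU-E (difference 1.58, adjusted p = 5.12e-08 with the block, 0.129 without it).

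**Figure D5:**
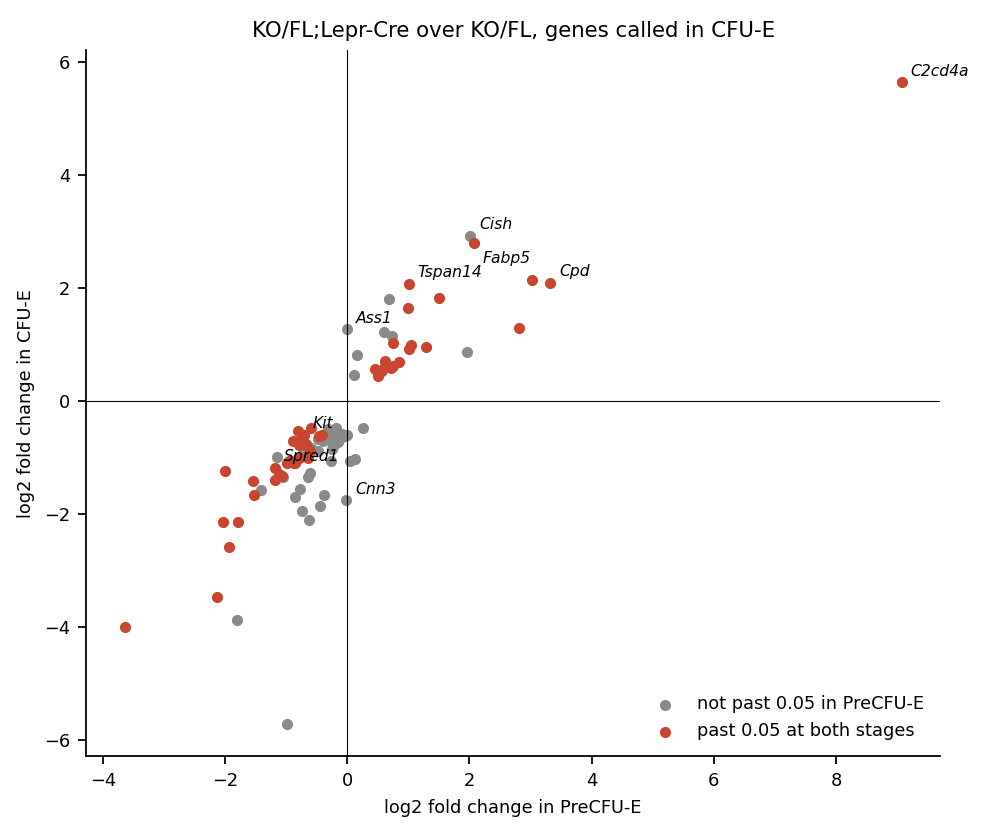
Log2 fold change, Lepr-Cre over KO/FL, in PreCFU-E (x axis) and CFU-E (y axis) of genes called in CFU-E, red where the PreCFU-E adjusted p was also under 0.05. Most points share a sign, Cnn3 and Ass1 lie near 0 on the x axis, and the x value of C2cd4a is a fitted value against libraries with 0 counts.

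The step from PreCFU-E to CFU-E in FL/FL mice, a comparison added after the data were seen, gives the usual direction of each gene at this stage, from libraries that the main comparison did not contrast. There edgeR called 965 genes higher (8.99%) and 998 lower (9.3%) of 10732. Of the 73 genes lower in Lepr-Cre CFU-E, 24 were higher at that step and 17 lower. Cnn3 had a log2 fold change of 2.69 at the step, Trim2 of 4.97, Rasgef1c of 3.35 and Ptpn13 of 1.88, while Hhex had -2.35, Myb -1.28 and Kit -0.97. Of the 30 genes higher in Lepr-Cre CFU-E, 4 were higher at the step and 7 lower. The 4 included Dmtn (2.82) and Cpd (1.88), and the 7 included Prkcq (-2.71), Ass1 (-2.56), Ccnd2 (-1.49) and Tspan14 (-1.24). Genes that rise and genes that fall at the step were thus on both sides of the comparison.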

How the data were processed

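RNA from sorted cells was made into libraries with a stranded total RNA kit, per the labels' protocols, which head that text as nuclear extraction. The authors deposited raw read counts per gene symbol and an RPKM table. STAR 2.5.2b, HTSeq and the build mm10 are named in the submitters' processing notes, without a strand setting. The gene lengths implied by the deposited RPKM values had a Spearman rho of 0.124 with merged exon lengths over 15424 genes, so levels were not compared between genes.

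Counts of the 9 CFU-E libraries were tested with edgeR 4.0.16 in R 4.3.3 (TMM, filterByExpr with a minimum count of 10 and total of 15, robust quasi-likelihood fit, Benjamini-Hochberg threshold 0.05), after a check on simulated counts. PreCFU-E had its own fit, and the interaction and the FL/FL step used all 18 libraries. Alternatives used DESeq2 1.42.0, limma 3.58.1 on log2(RPKM + 1) and log2(RPKM + 0.1), other filters, scalings and sample sets, blocks, and each library left out.

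The replicate letters were taken as pairs because same-letter libraries of Lepr-Cre and KO/FL CFU-E deviated together (r = 0.172, 0.139 and 0.132). Replicates of a group differed by 9.65 to 18.9 in chi-square per degree of freedom, so none was a repeat deposit. Named genes were Kitl, Kit, the 12 largest rises and falls among called genes that averaged 5 CPM or more in a group, did not overlap and were no predicted models, up to 4 called members of each list, and the leading interaction genes. Other names were chosen after their values were seen. The members and lists were chosen with earlier results of these data known.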

Additional observations from a re-analysis of the deposited data

Results flagged for a closer look

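These genes are given because the response to Lepr-Cre differed between CFU-E and PreCFU-E in edgeR's fit with the mouse as a block. A positive difference means a larger log2 fold change in CFU-E. Arpc1b, a subunit of the actin-nucleating ARP2/3 complex, had 36.9, 22.7 and 24.7 CPM in Lepr-Cre and 13.6, 13.2 and 15 in KO/FL CFU-E (log2 fold change 1.01, adjusted p = 0.0941, 0.0458 with the letter block). In PreCFU-E it had 57.8, 56.3 and 48.1 against 61.8, 74.7 and 68.6 CPM. Lepr-Cre libraries of Arpc1b were thus all higher at one stage and all lower at the other, and the difference was 1.32 (adjusted p = 0.00556 with the mouse block, 0.129 without it).

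The differences above 0 with that block were 1.28 for Ass1, 1.58 for Apoe, 1.1 for Tspan14 and 0.63 for Ccnd2. Those below 0 were -1.77 for Cnn3, -1.36 for Sptb, -1.24 for Cpd, -0.91 for AC162528.2, -0.66 for Add2 and -0.48 for Cpox. Cpd rose at both stages, by more in PreCFU-E (log2 fold change 3.32, against 2.09 in CFU-E). Without the block none of these differences passed.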

How the results depend on the processing

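The count of 103 genes in Lepr-Cre against KO/FL CFU-E was 100 with DESeq2 size factors, 98 in the fit of the 6 libraries and 131 in that of all 18. Of the genes so called, 100, 78 and 87 were among the 103. It was 244 with no filter, 229 by DESeq2, 280 with the replicate block, 29 by limma on log2(RPKM + 1) and 20 on log2(RPKM + 0.1). Males alone, an alternative chosen after seeing the data, gave 10. Leaving out 1 library gave 19 to 101, and of the 101 called without KO/FL A, 79 were among the 103. Genes higher made up 29.1% of the calls, 40.0% with the block, 41.8% in the 6 libraries, and 51.7% and 45.0% on RPKM. Each of the 103 kept its direction in every alternative where it was fitted. Since their libraries did not overlap between genotypes, that was largely fixed in advance. Cnn3, Fabp5, Ptpn13 and Tspan14 were called in all alternatives.

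KO/FL against FL/FL had 0 calls, 2 with no filter, 1 by DESeq2, and 0 to 1 with 1 library left out (1 without KO/FL C). The stage interaction had 0, against 36 with no filter, 23 by DESeq2, 61 with the mouse as replicate block, and 0 to 3 with 1 library left out (2 without KO/FL C, 3 without Lepr-Cre B). PreCFU-E had 225, against 394 with no filter, 344 by DESeq2, 840 with the replicate block, and 92 to 218 with 1 library left out (92 without KO/FL B, 122 without Lepr-Cre B). The FL/FL step stayed within 1.5 times of 1963. The cause of these shifts was not tested. The pairing by letter ended 2 calls of the 103, Amigo2 (adjusted p = 0.0671) and Zg16 (0.0747). Dusp6 (7 against 64 counts) and Spry1 (61 against 8) did not pass, while Spry4 (8 against 152) did, and whether depth limits such genes was not tested.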
